A study of Mus musculus with 12 samples.

Results

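Kupffer cells are the macrophages that live in the sinusoids of the liver, and 10 genes that mark them were followed here through a liver transcriptome of autophagy-deficient mice. The genes were Clec4f, Marco, Timd4, Vsig4, Cd5l, Cd163, Folr2, Adgre1, Csf1r and Nr1h3, taken by symbol as 10 of the 24411 genes in the table, and all 10 passed the filter on low counts. RNA was taken from the whole liver of C57BL/6 mice at 3 months of age, with 3 mice per genotype. The control mice (cont. in the plots) carried loxP-flanked Atg7 alleles without Cre (Atg7 flox/flox). The Atg7-KO mice carried the same alleles and the Alb-Cre transgene (Atg7 flox/flox;Alb-Cre), in which the albumin promoter drives Cre in hepatocytes, so that the macrophages themselves were not the target of the deletion. The Atg7-KO;p62 T352A mice carried in addition a knock-in of the endogenous p62 gene (Sqstm1) on both alleles, by which the p62 bodies that accumulate without autophagy hold little KEAP1. All 3 genotypes share the floxed Atg7 alleles, and the comparisons share mice, so they are not independent of each other.

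Resident Kupffer cells are seeded before birth and renew themselves locally under the growth factor receptor encoded by Csf1r. Signals from hepatocytes, sinusoidal endothelium and stellate cells hold them in their identity through transcription factors that include LXRalpha, the product of Nr1h3. When resident cells are lost, monocytes from the blood enter the liver and take up the Kupffer program in steps, with Clec4f among the earlier markers and Timd4 among the late ones. Of the other markers, some are found on most tissue macrophages (Adgre1, Csf1r) and some are scavenger, complement or folate receptors (Marco, Cd163, Vsig4, Folr2) or secreted (Cd5l). In bulk liver RNA, fewer macrophages and less of an RNA per macrophage cannot be told apart.

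The deletion was visible in the counts, which were summed over whole genes. Atg7 stood at 48.7 ± 5.94 normalized CPM (SD, n = 3; read counts scaled for the size of the library) in control, 10.6 ± 1.27 in Atg7-KO livers and 28.9 ± 1.28 in the livers of Atg7-KO;p62 T352A mice. Atg7 was thus lower than control in both mutant genotypes, and in the livers with p62 T352A it was 2.73-fold above Atg7-KO (log2 fold change 1.45 ± 0.17 (SE), adjusted p = 0.000164, edgeR quasi-likelihood test with Benjamini-Hochberg adjustment, as for all adjusted p-values here unless another tool is named). The difference of Atg7 between livers with p62 T352A and control (-0.75 ± 0.16, adjusted p = 0.0206) was not called when any single mouse with p62 T352A was dropped (adjusted p = 0.0524 to 0.0700) or with these 2 genotypes alone (adjusted p = 0.105). The part of Atg7 in the differences between these genotypes was not tested. Libraries held between 9671073 and 23285134 counts, of which the 10 genes took 0.0253% to 0.117%. The mice numbered 1 of each genotype stood apart with 7 to 28 counts of Xist against 8578 to 18335 in the other mice. Results without all mice numbered 1 thus come from the mice with high Xist alone. The TMM factors, which correct for the make-up of a library, were 1.28 to 1.32 in Atg7-KO and 0.750 to 0.953 in the other livers. Values from library totals alone are an alternative chosen after seeing the data.

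Promoter sequences are shown for a pair of genes that rose (Cd5l, Vsig4) and a pair that fell (Cd163, Timd4) in Atg7-KO livers. Each line gives the 250 bases before the transcription start, 5′ to 3′ in the direction of the gene, from RefSeq on GRCm38.p6, with the PU.1 core motif GAGGAA or its reverse complement in capitals. PU.1, encoded by Spi1, is the transcription factor that defines the myeloid lineage.
Cd5l (chr3:87357631-87357880, plus strand): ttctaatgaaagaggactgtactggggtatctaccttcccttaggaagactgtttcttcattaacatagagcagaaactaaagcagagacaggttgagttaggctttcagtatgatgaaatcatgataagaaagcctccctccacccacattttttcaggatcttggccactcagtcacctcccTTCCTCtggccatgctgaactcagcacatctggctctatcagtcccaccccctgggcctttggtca
Vsig4 (chrX:96293439-96293688, minus strand): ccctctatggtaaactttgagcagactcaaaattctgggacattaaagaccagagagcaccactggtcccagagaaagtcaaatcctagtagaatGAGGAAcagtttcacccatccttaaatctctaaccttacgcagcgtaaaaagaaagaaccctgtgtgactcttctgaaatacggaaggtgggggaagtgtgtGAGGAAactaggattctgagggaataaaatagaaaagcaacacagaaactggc
Cd163 (chr6:124304401-124304650, plus strand): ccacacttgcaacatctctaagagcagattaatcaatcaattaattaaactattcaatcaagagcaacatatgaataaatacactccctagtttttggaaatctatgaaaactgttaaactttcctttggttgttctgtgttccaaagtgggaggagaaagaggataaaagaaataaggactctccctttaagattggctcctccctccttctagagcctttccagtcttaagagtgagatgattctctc
Timd4 (chr11:46810549-46810798, plus strand): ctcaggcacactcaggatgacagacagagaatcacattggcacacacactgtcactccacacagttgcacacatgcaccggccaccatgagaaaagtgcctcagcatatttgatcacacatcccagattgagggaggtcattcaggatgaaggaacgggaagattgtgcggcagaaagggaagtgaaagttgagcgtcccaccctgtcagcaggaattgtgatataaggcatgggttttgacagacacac
The core occurred once in Cd5l, on the reverse strand 66 bases before the start, and in Vsig4 at 155 and 53 bases before the start. It also occurred once in Marco, and in none of the windows of Cd163, Timd4, Clec4f, Folr2 and Nr1h3. Adgre1 and Csf1r had no entry to search. Over all 32851 promoter windows of that length, 23.3% held the core on either strand. The core of the antioxidant response element bound by NRF2, TGACNNNGC, was found in Clec4f and in 1 of the Folr2 windows, and in 10.2% of all windows. The direct repeat bound by LXR, AGGTCA given 2 times with 4 bases between, was found in no marker gene and in 0.0152% of all windows. These matches describe letters, not binding.

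In Atg7-KO livers the marker genes moved in opposite directions. Of the 10, 5 rose (Adgre1, Cd5l, Csf1r, Vsig4 and Folr2) and 3 fell (Cd163, Timd4 and Nr1h3) against control at a false discovery rate under 0.05 and a fold change over 1.5, while Clec4f and Marco did not pass. Of all 13922 genes tested, 43.7% passed the same thresholds, 21.6% as higher and 22.1% as lower. The values of the Atg7-KO mice lay outside those of the control mice for 9 of the 10 genes (6 above, 3 below), against 55.5% of all genes (29.2% above, 26.3% below). The 10 genes had a median log2 fold change of 0.95, against -0.03 over all genes. From library totals alone the median of all genes in this comparison moved to 0.55, and 6 marker genes were then called higher and 2 lower. Of all 13922 genes, 5926 were then called higher and 1103 lower.

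**Figure D1:**
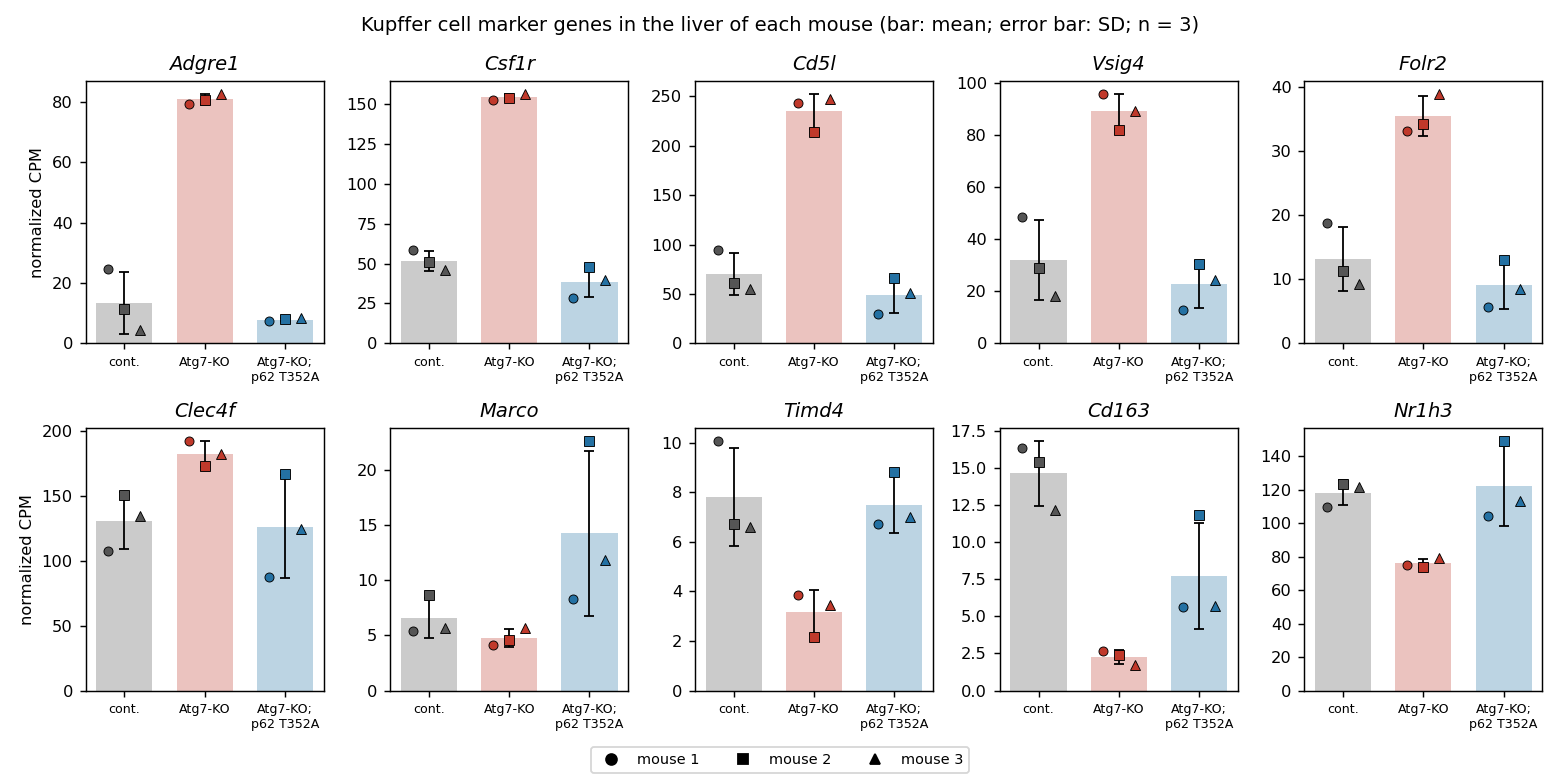
Normalized CPM of the 10 marker genes in each mouse, 1 panel per gene with its own linear axis from 0; bars are means and error bars SD over 3 mice, and the point shape gives the mouse number. The upper row holds the 5 genes called higher in Atg7-KO than in control livers; in the lower row every Atg7-KO mouse was above all other mice for Clec4f and below them for Timd4, Cd163 and Nr1h3.

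Among the receptors that most macrophages carry, Adgre1, an adhesion receptor and the classical surface antigen of mouse macrophages, showed the largest rise of the 10. It stood at 24.5, 11.3 and 4.40 CPM in control mice 1 to 3 and at 79.2, 80.5 and 82.8 CPM in the Atg7-KO mice. The control mice spread 5.58-fold, whereas the Atg7-KO mice lay within 1.04-fold of each other and far above them. Adgre1 was 5.94-fold higher (log2 fold change 2.57 ± 0.47, 95% interval 1.52 to 3.62, adjusted p = 0.00200). Csf1r, the receptor for the ligands Csf1 and Il34, stood at 58.4, 51.1 and 45.9 CPM in control and 152, 153 and 156 CPM in Atg7-KO mice. This was the tightest of the rises, 2.97-fold (log2 fold change 1.57 ± 0.21, adjusted p = 0.000375). Of the 75-base stretches of Csf1r, 13.9% also occur, on either strand, in transcripts of other genes. Its exons overlap those of Hmgxb3, which was not called in any comparison (log2 fold change -0.43 ± 0.22, adjusted p = 0.138, in Atg7-KO against control). The strand setting of the counting is not stated.

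Cd5l, a secreted scavenger protein that protects macrophages from apoptosis and is a target of LXR, stood at 94.1, 60.9 and 54.8 CPM in control and at 243, 214 and 247 CPM in Atg7-KO mice. It was 3.35-fold higher (log2 fold change 1.75 ± 0.30, adjusted p = 0.00159), and its lowest Atg7-KO mouse was above its highest control mouse. Vsig4, the complement receptor by which Kupffer cells take bacteria from the blood, was measured at 48.5, 28.7 and 18.2 CPM in control and at 95.8, 82.1 and 89.1 CPM in Atg7-KO mice. The rise was 2.79-fold (log2 fold change 1.48 ± 0.37, adjusted p = 0.0102), and without control mouse 2 it no longer passed (1.31, adjusted p = 0.0581). Folr2, a folate receptor of resident macrophages, stood at 18.8, 11.3 and 9.34 CPM in control and at 33.2, 34.3 and 39.0 CPM in Atg7-KO mice, a 2.68-fold rise (log2 fold change 1.42 ± 0.33, adjusted p = 0.00656). Its value is uncertain, because 47.1% of its 75-base stretches also occur, on either strand, in transcripts of other genes. The exons of Folr2 overlap those of Gm10602, which has no row in the table.

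The genes that fell were led by Cd163, the scavenger receptor for haemoglobin bound to haptoglobin. It stood at 16.4, 15.4 and 12.2 CPM in control mice and at 2.66, 2.38 and 1.71 CPM in Atg7-KO mice, from 40 to 58 counts in each of the latter. Cd163 was 6.52-fold lower (log2 fold change -2.71 ± 0.34, 95% interval -3.45 to -1.96, adjusted p = 0.000260), a larger change in size than that of any other marker gene in this comparison. Timd4, a phosphatidylserine receptor for apoptotic cells, was at 10.1, 6.71 and 6.59 CPM in control and at 3.87, 2.18 and 3.46 CPM in Atg7-KO mice. The groups did not overlap, and Timd4 was 2.48-fold lower (log2 fold change -1.31 ± 0.28, adjusted p = 0.00453). Both falls were also called from library totals alone, at -2.13 for Cd163 and -0.71 for Timd4.

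Nr1h3 encodes a nuclear receptor for oxysterols that hepatocytes express as well as Kupffer cells. It stood at 110.1, 124 and 122 CPM in control and at 75.3, 73.6 and 79.2 CPM in Atg7-KO mice. It was 1.56-fold lower, just past the fold threshold (log2 fold change -0.64 ± 0.18, adjusted p = 0.0147). From library totals alone the fall was -0.08 and was not called, and it also missed the thresholds under upper-quartile normalization, a stricter filter and without Atg7-KO mouse 1 or 2. Hepatocyte markers moved with it: 8 of 10 fell and none rose, with a summed level of 38117 to 40881 CPM in Atg7-KO against 76004 to 130937 CPM in control mice. Their part in the value of Nr1h3 was not tested.

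Clec4f and Marco did not pass in this comparison. Clec4f, a C-type lectin that in mice is restricted to Kupffer cells, stood at 107, 151 and 134 CPM in control and at 192, 172 and 182 CPM in Atg7-KO mice. All Atg7-KO mice were above all control mice, and the fitted difference of the groups was 1.40-fold (log2 fold change 0.48 ± 0.24, 95% interval -0.06 to 1.02, adjusted p = 0.128). From library totals alone Clec4f was called higher (1.03, adjusted p = 0.0101). Marco, a scavenger receptor for bacteria and particles, was at 5.44, 8.70 and 5.71 CPM in control and at 4.11, 4.60 and 5.72 CPM in Atg7-KO mice, and the groups overlapped (log2 fold change -0.46 ± 0.37, adjusted p = 0.333). Its direction turned to 0.10 from library totals alone.

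**Figure D2:**
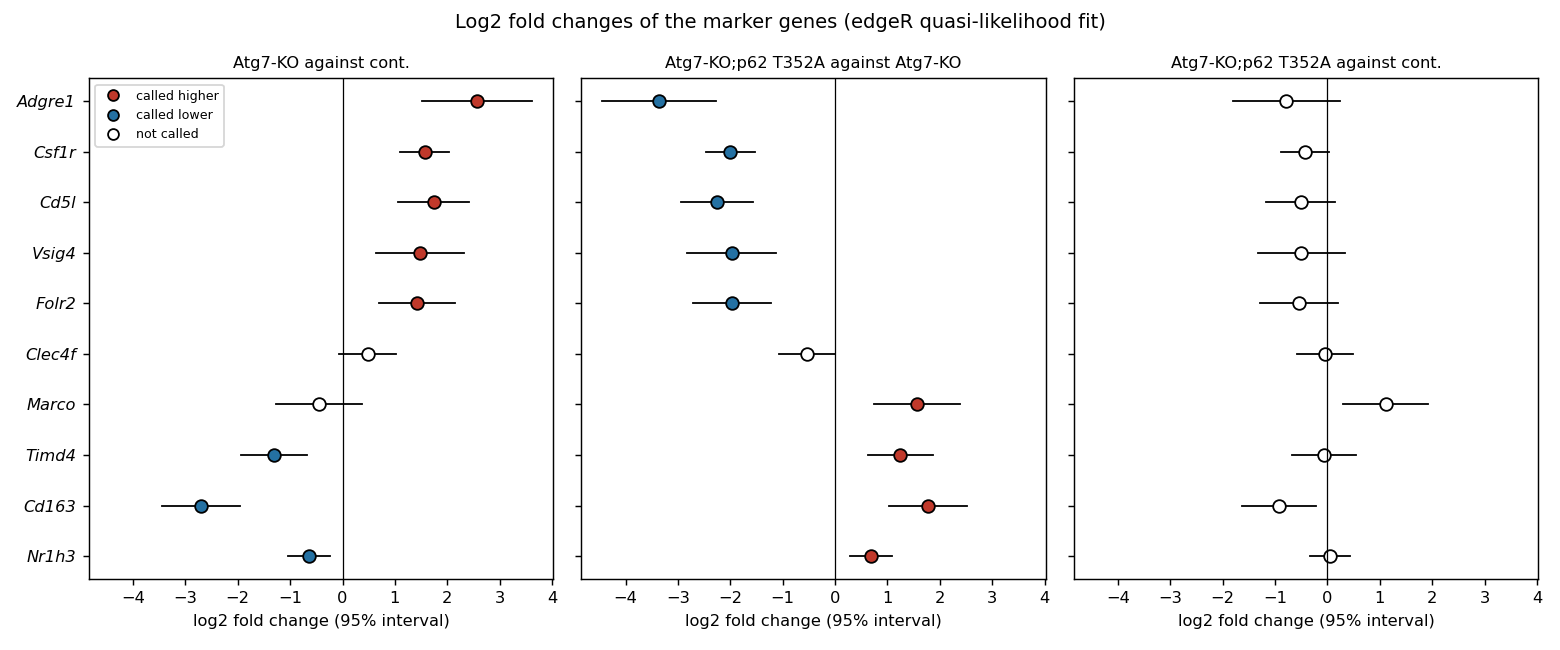
Log2 fold change of each marker gene in the 3 comparisons, with horizontal lines for the 95% interval of the edgeR fit; red points were called higher, blue points lower and white points not called. In the left and middle panels, which share the Atg7-KO mice, the points lie on opposite sides of 0 for every gene. In the right panel no gene was called.

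Set against Csf1r in the same mouse, a ratio that no library scaling can change, the genes fell into a group that kept its proportion and a group that lost it. The mean log2 ratio of Vsig4 to Csf1r was -0.81 in control and -0.79 in Atg7-KO livers, that of Folr2 was -2.03 and -2.12, and that of Cd5l was 0.40 and 0.61. In these 3 genes the mice of both genotypes overlapped. For Adgre1 the ratio was -2.27 in control and -0.93 in Atg7-KO livers, with every Atg7-KO mouse above every control mouse. The ratio of Clec4f was 1.33 in control and 0.24 in Atg7-KO livers, and that of Nr1h3 was 1.20 and -1.02. The ratios of Marco (-2.99 and -5.01), Timd4 (-2.75 and -5.65) and Cd163 (-1.82 and -6.12) were lower by 2 or more log2 units. For these 5 genes no Atg7-KO mouse reached the lowest control mouse. With Adgre1 as the reference the ratios of all 8 other genes were lower in Atg7-KO livers, from -1.13 for Cd5l to -5.64 for Cd163, so that the stable proportion of Cd5l, Vsig4 and Folr2 holds against Csf1r and not against Adgre1. In Atg7-KO;p62 T352A livers the mean ratios to Csf1r were 1.69 for Clec4f, 1.68 for Nr1h3, -2.34 for Timd4, -2.38 for Cd163 and -1.53 for Marco. These ratios describe the RNA of the whole liver and were not tested.

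**Figure D3:**
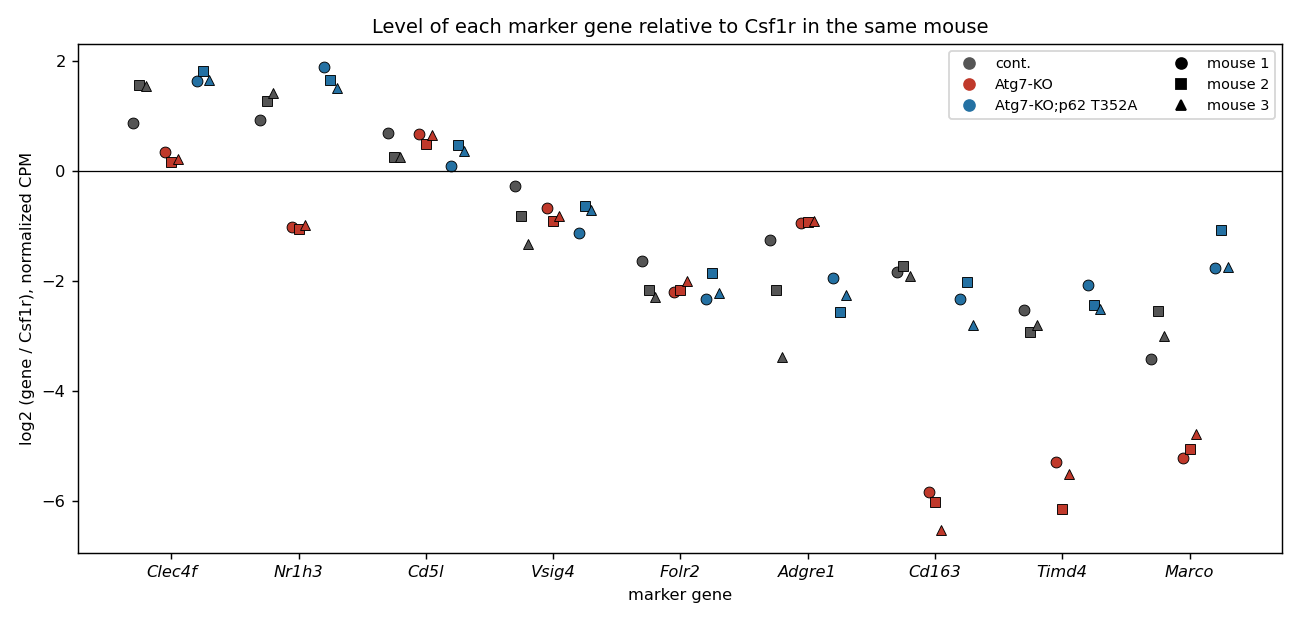
Log2 ratio of each marker gene to Csf1r in the same mouse, from normalized CPM; color gives the genotype and shape the mouse number, and 0 is a level equal to Csf1r. The red points of the Atg7-KO mice lie among the other points for Cd5l, Vsig4 and Folr2, above them for Adgre1, and below them for Clec4f, Nr1h3, Cd163, Timd4 and Marco.

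Per kilobase of the longest coding transcript, the order of levels also differed between genotypes. In control livers the mean levels ran from Nr1h3 (60.6 CPM per kb) and Clec4f (52.9) through Cd5l (34.4), Vsig4 (22.2), Csf1r (11.0) and Folr2 (10.9) to Adgre1 (4.15), Timd4 (3.59), Marco (3.44) and Cd163 (3.30). Neighbours in that order overlapped between mice, except Vsig4 with Csf1r and Folr2 with Adgre1. In Atg7-KO livers the order ran from Cd5l (115 CPM per kb) through Clec4f (73.8), Vsig4 (62.1), Nr1h3 (38.9), Csf1r (32.8), Folr2 (29.5) and Adgre1 (25.0) to Marco (2.50), Timd4 (1.46) and Cd163 (0.506). There only Csf1r and Folr2 overlapped as neighbours. The span from the highest to the lowest marker was thus wider in Atg7-KO livers, with Cd163 as the lowest of the 10 in both genotypes.

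The second comparison set livers of Atg7-KO;p62 T352A mice against those of Atg7-KO mice. These livers differed in p62 and also in Atg7 RNA, which was 2.73-fold higher with p62 T352A. Of the 10 genes, 5 fell (Adgre1, Cd5l, Csf1r, Vsig4 and Folr2) and 4 rose (Cd163, Marco, Timd4 and Nr1h3) in livers of Atg7-KO;p62 T352A mice against those of Atg7-KO mice, and Clec4f did not pass. Of all genes tested 51.0% were called, 24.7% as higher and 26.2% as lower. The 2 groups of mice did not overlap for any of the 10 genes (4 above, 6 below), against 73.2% of all genes (36.4% above, 36.8% below). The 10 had a median log2 fold change of -1.25, against 0.00 over all genes. From library totals alone the median of all genes was -0.57, and 2 marker genes were called higher and 6 lower. Of all 13922 genes, 1342 were then called higher and 6138 lower.

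Adgre1 stood at 7.35, 8.06 and 8.29 CPM in the Atg7-KO;p62 T352A mice, 10.2-fold below Atg7-KO (log2 fold change -3.35 ± 0.49, adjusted p = 0.000492). Here its mice lay within 1.13-fold of each other, unlike the control mice. Cd5l was at 30.1, 65.8 and 51.2 CPM, 4.78-fold lower (log2 fold change -2.26 ± 0.31, adjusted p = 0.000368). Csf1r was at 28.3, 47.7 and 39.8 CPM, 3.99-fold lower (log2 fold change -2.00 ± 0.21, adjusted p = 0.000116). The complement receptor Vsig4 (13.0, 30.5 and 24.4 CPM) and the folate receptor Folr2 (5.64, 13.1 and 8.49 CPM) each fell by a log2 fold change of -1.97 (SE 0.38 and 0.33). In each of these 5 genes the highest Atg7-KO;p62 T352A mouse was below the lowest Atg7-KO mouse.

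The opposite group rose. Cd163 was at 5.64, 11.8 and 5.68 CPM, 3.43-fold above Atg7-KO (log2 fold change 1.78 ± 0.33, adjusted p = 0.00179). Marco was at 8.28, 22.7 and 11.8 CPM, 2.96-fold higher (log2 fold change 1.57 ± 0.36, adjusted p = 0.00557), and from library totals alone it was not called (0.97, adjusted p = 0.0526). Timd4 was at 6.71, 8.83 and 6.98 CPM, 2.37-fold higher (log2 fold change 1.25 ± 0.28, adjusted p = 0.00460). Nr1h3 was at 104, 149 and 113 CPM, 1.61-fold higher (log2 fold change 0.69 ± 0.18, adjusted p = 0.00895), and from library totals alone it was not called (0.10, adjusted p = 0.657). Clec4f was at 87.5, 167 and 124 CPM, below every Atg7-KO mouse (log2 fold change -0.53 ± 0.24, 95% interval -1.07 to 0.01, adjusted p = 0.0878). It was called lower from library totals alone (-1.11), under upper-quartile normalization (-0.67) and without Atg7-KO;p62 T352A mouse 2 (-0.78). Hepatocyte markers moved in the direction of the 4 marker genes that rose, with 8 of 10 higher and a summed level of 113249 to 130813 CPM in the Atg7-KO;p62 T352A mice, and their part in these values was not tested.

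Against control, none of the 10 genes was called in Atg7-KO;p62 T352A livers by edgeR, where 11.6% of all genes were (6.25% higher, 5.34% lower). At an unadjusted p under 0.05 there were 2 (Marco and Cd163), and DESeq2 called the same 2. The 10 had a median log2 fold change of -0.46, against 0.00 over all genes, and 8 of the 10 were negative. Without all mice numbered 1, 6 of those 8 were above 0 (Clec4f, Timd4, Vsig4, Cd5l, Folr2 and Adgre1), at most 0.25 for Timd4. The 95% interval included 0 for 8 genes, and it still allowed a sizeable difference for most: for Adgre1 it ran from -1.81 to 0.24 (estimate -0.78), and for Vsig4 from -1.33 to 0.33 (estimate -0.50). The intervals were narrowest for Nr1h3 (-0.34 to 0.44) and Csf1r (-0.88 to 0.03). A missed threshold does not show that the genotypes were alike.

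Cd163 was the only marker gene without overlap here, since its highest Atg7-KO;p62 T352A mouse (11.8 CPM) was below its lowest control mouse (12.2 CPM), while 26.6% of all genes did not overlap. Its log2 fold change was -0.93 ± 0.31 (95% interval -1.63 to -0.23, adjusted p = 0.0849 by edgeR, 0.0386 by DESeq2). Without Atg7-KO;p62 T352A mouse 2, edgeR called it lower (-1.38, adjusted p = 0.0246). Marco had a mean above control, 14.3 ± 7.51 CPM against 6.62 ± 1.81 CPM (log2 fold change 1.11 ± 0.36, adjusted p = 0.0775 by edgeR, 0.0438 by DESeq2). It was called higher without Atg7-KO;p62 T352A mouse 1 (1.38, adjusted p = 0.0467) and when the mice numbered 1 were dropped from all genotypes (1.25, adjusted p = 0.0374). Adgre1 was called lower without control mouse 3 (-1.19, adjusted p = 0.0322).

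How far the mice of 1 genotype varied together across the marker genes differed between genotypes. Atg7-KO;p62 T352A mouse 1 was the lowest of its group in all 10 genes and mouse 2 the highest in 9. Control mouse 1 was the highest of its group in 7 genes and control mouse 3 the lowest in the same 7, while Clec4f, Marco and Nr1h3 were lowest in control mouse 1 and highest in mouse 2. Among Atg7-KO mice, mouse 1 was the highest in 4 genes and the lowest in 4 others. Mouse 3 was the highest in 6 genes and the lowest in 1. The spread of the Atg7-KO mice was at most 1.78-fold (Timd4), and it was under 1.2-fold for Clec4f, Vsig4, Cd5l, Folr2, Adgre1, Csf1r and Nr1h3.

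Other genes of the liver macrophage compartment give the frame for these values. Of 17 further genes tied to Kupffer identity, 11 rose, 1 fell and 5 did not pass in Atg7-KO against control, with a median of 1.18. Of all genes, 21.6% were higher and 22.1% lower. Which liver cells the RNA of these 17 genes came from was not tested. Vcam1, an adhesion molecule, stood at 14.4 ± 2.11 CPM in control and 100.8 ± 10.1 CPM in Atg7-KO livers (log2 fold change 2.81 ± 0.22). Siglec1, a sialic acid receptor, rose by 2.22 ± 0.21. At the other end Kcna2, a potassium channel, did not pass (-0.64 ± 0.34) but was called lower without control mouse 1 (-0.96, adjusted p = 0.00753) and without all mice numbered 1 (-1.03, adjusted p = 0.00646). With p62 T352A on the Atg7 deletion, 11 of the 17 fell against Atg7-KO, where 26.2% of all genes were lower and 24.7% higher. The 2 that rose included Kcna2. Its rise (1.19 ± 0.33, adjusted p = 0.0135) was lost from library totals alone (0.61, adjusted p = 0.199), without Atg7-KO mouse 2 (adjusted p = 0.0557) and without Atg7-KO;p62 T352A mouse 2 (adjusted p = 0.0536). Against control 3 of the 17 were lower and none higher, where 5.34% of all genes were lower and 6.25% higher. The number of the 17 called ran from 0 to 5 between alternatives.

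All 15 pan-macrophage genes rose in Atg7-KO livers, where 21.6% of all genes were higher. Their median was 2.32, above that of the Kupffer markers. Their summed level was 2150 to 2259 CPM against 283 to 471 CPM in control mice. Ctss, a lysosomal protease, rose by 3.24 ± 0.40 and Lyz2, the lysozyme of myeloid cells, by 2.98 ± 0.57. The smallest rises in Atg7-KO livers were those of Ptprc, the common leukocyte antigen (1.74 ± 0.22), and Aif1, an actin-binding protein of macrophages (1.67 ± 0.25). With p62 T352A 2 of the 15 were higher than control, where 6.25% of all genes were. The count was 8 when the mice numbered 1 were dropped and 0 with the 2 genotypes alone. Over the same mice the summed level of the 10 Kupffer markers was 820 to 887 CPM in Atg7-KO and 413 to 493 CPM in control livers. Its rise was thus smaller than that of the pan-macrophage sum, and with p62 T352A the marker sum was 297 to 525 CPM.

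Genes of monocyte-derived and lipid-associated macrophages rose furthest, with 14 of 15 called higher in Atg7-KO livers, none lower and a median of 3.10. Of all genes, 21.6% were higher and 22.1% lower. The 15 genes are taken as a list, and the cells they came from were not tested. The summed level of the 15 genes was 608 to 625 CPM in Atg7-KO against 62.6 to 87.8 CPM in control mice. The largest parts of this sum in Atg7-KO livers were Cd9 (258 ± 11.7 CPM) and Cd63 (78.1 ± 7.88 CPM). Whether other liver cells gave part of the RNA of Cd9 and Cd63 was not tested. Gpnmb, a glycoprotein of lipid-laden macrophages, stood at 18.5 ± 1.19 CPM in Atg7-KO and at 0 to 0.220 CPM in control mice. Cx3cr1, the fractalkine receptor of monocytes, was at 20.8 ± 3.67 and 0.533 ± 0.442 CPM. Plac8, a marker of classical monocytes, rose by 2.26 ± 0.30, and Fabp5, a fatty acid carrier, did not pass (1.20 ± 0.52, adjusted p = 0.0810). Fabp5 was called higher from library totals alone (1.81, adjusted p = 0.0122), without control mouse 1 (adjusted p = 0.0488), without all mice numbered 1 (adjusted p = 0.0332), without Atg7-KO;p62 T352A mouse 2 (adjusted p = 0.00778) and with the 2 genotypes alone (adjusted p = 0.0152). With at least 10 counts required in every mouse, which removes genes near 0 in control livers, 7 of the list were called, all higher. With p62 T352A on the deletion, 14 of the 15 fell against Atg7-KO, where 26.2% of all genes were lower. Against control 5 of the 15 were higher and none was lower, where 6.25% of all genes were higher and 5.34% lower. The count of 5 became 3 when any of the Atg7-KO mice or Atg7-KO;p62 T352A mouse 3 was left out. It was 1 with the 2 genotypes alone. These genes moved with the 5 marker genes that rose and against the 3 that fell, and their part in the marker values was not tested.

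**Figure D4:**
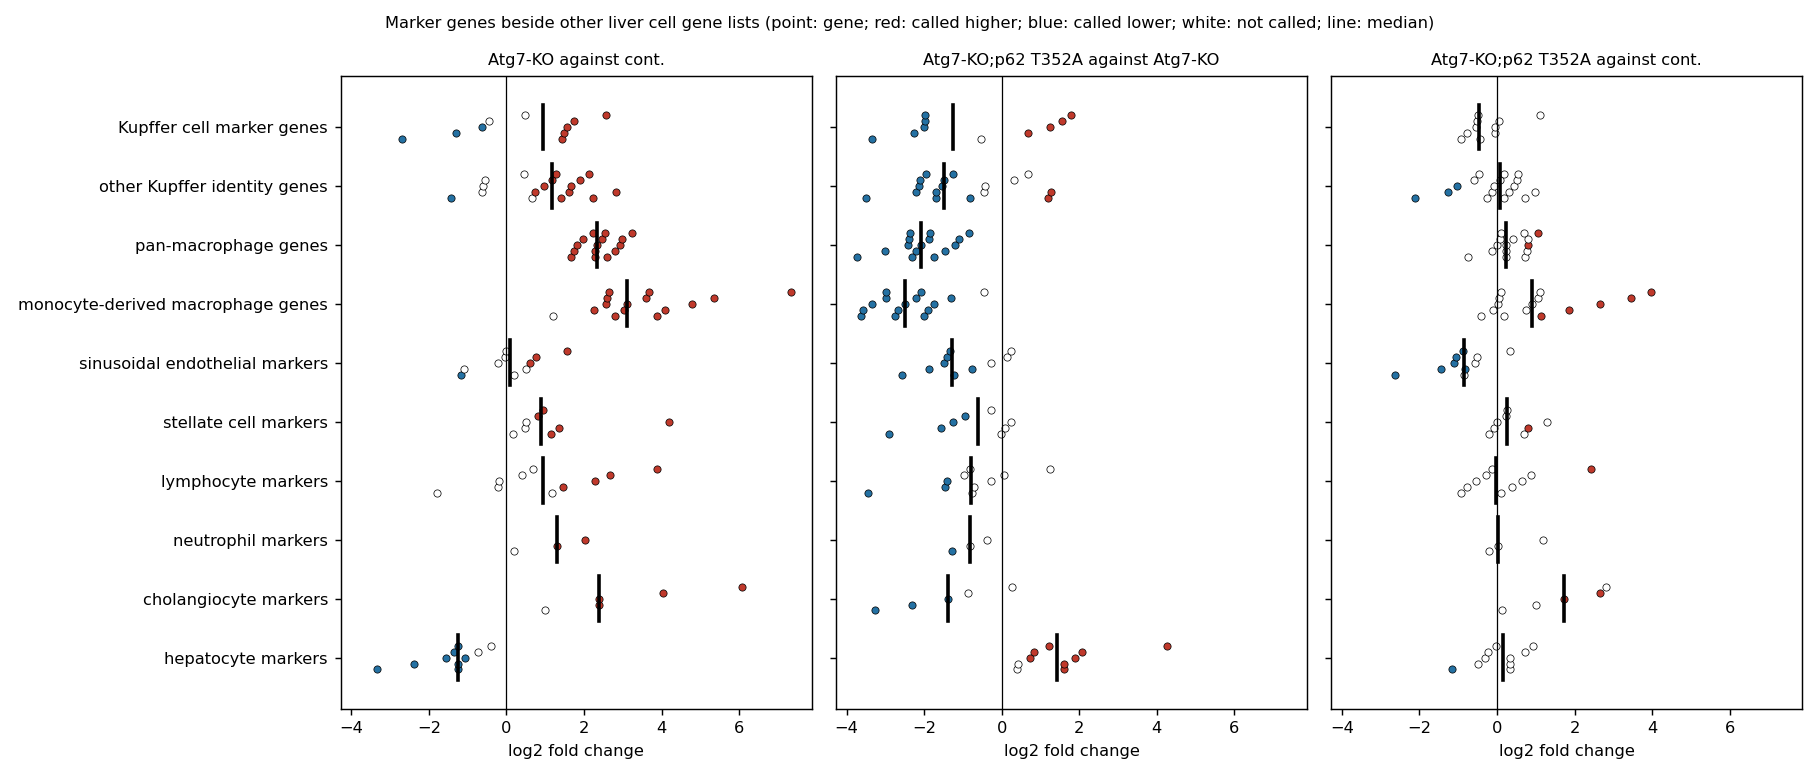
Log2 fold change of the tested genes of each list in the 3 comparisons; each point is a gene, red if called higher, blue if called lower and white if not called, and the vertical line is the list's median. The marker genes at the top straddle 0 in the left and middle panels, whereas all pan-macrophage genes lie on 1 side of 0 in each.

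Of 13 tested niche ligands and regulators, 3 rose and 3 fell in Atg7-KO livers, and of 10 LXR targets 2 rose and 2 fell. These shares are near those over all genes, of which 21.6% were higher and 22.1% lower. Acvrl1, a BMP receptor, rose by 1.61 ± 0.23 and Tgfb1, the ligand, by 1.53 ± 0.27. Rxra, the partner of LXR, fell by a log2 fold change of -0.77 ± 0.18 but was not called from library totals alone (-0.20, adjusted p = 0.337), and Dll1, a Notch ligand, by -1.43 ± 0.51 (adjusted p = 0.0446) with overlap between the mice. Neither fall was called from library totals alone, and that of Dll1 was lost under most alternatives. Among the LXR targets, Abcg1, a cholesterol exporter, was at 7.38 ± 0.463 CPM in control and 31.5 ± 2.45 CPM in Atg7-KO livers (2.09 ± 0.16), and Pltp, the phospholipid transfer protein, rose by 1.01 ± 0.29, a call that was lost without control mouse 2 (adjusted p = 0.0717) and without Atg7-KO mouse 3 (adjusted p = 0.0652). Srebf1, a regulator of fatty acid synthesis, had a log2 fold change of -1.28 ± 0.30, which was not called from library totals alone, and the sterol exporter Abcg5 did not pass (-1.40 ± 0.52, adjusted p = 0.0502). Abcg5 was called lower with DESeq2 (adjusted p = 0.0141), with its size factors (adjusted p = 0.0444), without a filter (adjusted p = 0.0423), without control mouse 1 (-1.85, adjusted p = 0.000455) and without all mice numbered 1 (-1.76, adjusted p = 0.00247).

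Markers of other liver cells were counted in the same way in Atg7-KO against control livers, where 21.6% of all genes were higher and 22.1% lower. Of the tested genes, 5 of 8 stellate cell, 4 of 5 cholangiocyte, 4 of 10 lymphocyte, 2 of 3 neutrophil and 3 of 10 sinusoidal endothelial markers were higher, with 1 endothelial marker lower. The summed level of stellate cell markers was 593 to 631 CPM in Atg7-KO against 257 to 310.0 CPM in control mice, that of cholangiocyte markers 54.3 to 60.8 against 8.25 to 8.98 CPM, and that of lymphocyte markers 23.01 to 28.5 against 9.51 to 20.1 CPM. The neutrophil sums overlapped, at 9.94 to 15.3 against 4.35 to 10.6 CPM, as did the endothelial sums, at 456 to 477 against 422 to 640.4 CPM. In Atg7-KO;p62 T352A livers 6 of 10 endothelial markers were lower than control, where 5.34% of all genes were lower. The part of these cells in the marker values was not tested.

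The genes most like 3 of the markers were listed by Pearson correlation of log2 CPM over the 9 mice, which share the genotype differences and the library scaling. For Clec4f they were Coprs (0.981), Acta2 (0.956), Jrk (0.951), Clec1b (0.949) and Pdlim4 (0.947). Of these, Acta2 is on the list of stellate cell markers and Clec1b on that of further Kupffer genes. For Cd5l they were Csrp1 (0.996), Rrm1 (0.993), Slc45a4 (0.993), Prelp (0.993) and Hmox1 (0.992). Hmox1, heme oxygenase, is also on the list of further Kupffer genes. For Marco they were Phax (0.982), Psmc5 (0.966), Hsd17b6 (0.960), Znhit1 (0.955) and Syf2 (0.950). Without TMM scaling the values of the Marco group ranged from 0.763 to 0.947, whereas those of the Clec4f and Cd5l groups were 0.971 or higher. Without the mice numbered 1 the Marco group ranged from 0.962 to 0.987 and the Cd5l group from 0.990 to 0.997, and the Clec4f group from 0.824 (Pdlim4) to 0.959.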

How the data were processed

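The authors sequenced poly(A) RNA of livers as 75-base single-end reads, trimmed them with Trim Galore, mapped them to mm10 with STAR and counted genes with RSEM; versions, annotation and strand setting are not given in the sources used here. The deposited table holds the authors' expected counts per gene and mouse, not normalized, which were rounded to whole numbers here. Mice were grouped by the genotype in their labels. The 3 labelled p62 T352A mice without Cre were not analysed here.

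Genes were filtered with filterByExpr, scaled by TMM and fitted over the 3 genotypes with edgeR 4.0.16 (R 4.3.3, quasi-likelihood test, no block, Benjamini-Hochberg adjustment over all genes tested). Genes under an FDR of 0.05 and over a fold change of 1.5 were called. Normalized CPM are scaled by TMM, and log2 CPM used a prior count of 2. SE derive from the F statistic. The script was tested on simulated data. Figures used Python 3.11.15 and matplotlib 3.10.9. Lengths and overlaps came from GENCODE vM21, and 8 of 10 promoters from RefSeq.

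The marker genes and lists were chosen with earlier results of these data known. Cd9 and Cd63 are given only as the largest parts of a summed level. Named were the 10 markers, from each further macrophage, niche and LXR list the 2 genes with the highest and the 2 with the lowest log2 fold change of Atg7-KO against control, the 5 genes most correlated with Clec4f, Cd5l and Marco, and Atg7. A gene that this rule also names is not reported here. Alternatives were DESeq2 1.42.0, its size factors, upper-quartile scaling, library totals, other filters, FDR alone, glmTreat, the 2 genotypes alone, the 20 most counted genes left out, a replicate block and each mouse left out. The labels do not say that mice were littermates, and the main fit assumed no pairing. Its p-values set each difference against the spread of these 9 mice within their genotypes. Depth was 9671073 to 23285134 counts per mouse.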

Additional observations from a re-analysis of the deposited data

How the results depend on the processing

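Marker counts for Atg7-KO against control (8) and for p62 T352A on the deletion against Atg7-KO (9) stayed within 7 to 8 and 8 to 9 under every alternative run. Against control the count of 0 became 2 with DESeq2, 1 without all mice numbered 1, and 0 to 1 with single mice left out. In the fit with a replicate block by number the counts were 8, 9 and 0. The labels do not say that a number marks a shared litter or batch. The mean correlation of deviations was 0.223 for the mice numbered 1, all low in Xist, -0.030 for those numbered 2 and 0.247 for those numbered 3, against -0.071 for other pairs. The lowest of a same-numbered pair was -0.202, so pairing was not assumed, and 6 of 9 mice correlated best with their own number.

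Direction turned only in values that were not called. For Atg7-KO;p62 T352A against control, leaving out the mice numbered 1 gave 0.031 for Clec4f, 0.25 for Timd4, 0.22 for Vsig4, 0.017 for Cd5l, 0.057 for Folr2 and 0.040 for Adgre1. With single mice left out Clec4f ran from -0.30 to 0.16, Timd4 from -0.24 to 0.17 and Nr1h3 from -0.12 to 0.15. Nr1h3 gave -0.00039 with DESeq2 and -0.0010 with its size factors. From library totals alone, Marco gave 0.10 in Atg7-KO against control and Rxra -0.31 with p62 T352A against Atg7-KO. The causes were not tested.

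Upper-quartile scaling moved the median of all genes to 0.08 in Atg7-KO against control (3366 higher and 2581 lower, against 3006 and 3074) and to -0.13 with p62 T352A against Atg7-KO (2897 and 4141, against 3443 and 3652). Library totals gave 5926 and 1103, and 1342 and 6138. The count over all genes for Atg7-KO;p62 T352A against control (1613) ran from 50 with the 2 genotypes alone to 3245 without control mouse 1, and glmTreat gave 3855 instead of 6080 and 4718 instead of 7095 in the other comparisons. Some values rest on few counts, with 40 to 58 of Cd163 and 53 to 81 of Timd4 in each Atg7-KO mouse. In control mouse 3, Adgre1 had 40 counts and Marco 52. Counting error and the spread between mice were not separated.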
